A study of Sus scrofa with 15 samples.

Results

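Interferon-stimulated genes are the genes that a cell switches on when interferon reaches it, and 39 of them were followed in IPEC-J2, a line of pig jejunal epithelium that was never transformed. They were chosen by symbol, and a gene counted as a member when its NCBI Gene number in the files mapped to one of those pig symbols. 38 of the 39 were found in both expression tables, among 16804 genes that both tables list. RNF213, a large ubiquitin ligase, was matched in neither, and IFIT5 was matched through a synonym in the RefSeq gene table. The cells carried lentiviral vectors made to change a microRNA, and 15 RNA sequencing libraries form 5 groups of 3. Lv3NC is the control vector for knockdown, Lv133KD the vector that knocks down miR-133, and Lv143KD a knockdown vector whose target is unsettled, since its label and the series' design text name different microRNAs. Lv20NC is the control vector for overexpression, and OV143 the vector that overexpresses miR-143. All 5 groups carry a vector, untransduced cells were not analysed here, and the labels describe no interferon treatment or infection. Nothing in the labels shows that a group's 3 libraries are separate cultures, and p-values therefore measure only how these samples spread, which may be technical.

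When a cell senses foreign nucleic acid it releases type I or type III interferon, which binds a receptor on the same or a neighbouring cell. The receptor's kinases JAK1 and TYK2 phosphorylate STAT proteins such as STAT2, which joins IRF9 in a complex that binds the promoters of interferon-stimulated genes. Their products cut or sequester viral RNA, trap viral particles, tag proteins with ISG15 and tune the pathway itself, and intestinal epithelium keeps a low level of many of them at rest.

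Between 11250 and 11557 genes reached 1 FPKM (fragments per unit of transcript length and sequencing depth) in each of the 15 libraries. The FPKM sums ran from 486086 to 558042 in 14 libraries and came to 662022 in OV143 replicate 2, which also held the highest or the lowest value of the table for 38.5% and 37.5% of the genes tested. FPKM does not show depth, which is unknown. The epithelial markers KRT8, EPCAM, CDH1 and KRT18 averaged 741, 300.5, 177 and 139 FPKM in the knockdown table and 754, 596, 227 and 154 FPKM in the overexpression table. Of the leukocyte markers, PTPRC was listed at 0 in all 9 knockdown libraries and is not listed in the overexpression table. CD68 averaged 2.12 and 4.025 FPKM and CD14 1.59 and 1.455 FPKM in the 2 tables, and the other leukocyte markers listed were lower. The endothelial cadherin CDH5 averaged 9.27 and 4.28 FPKM in the 2 tables.

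Mean levels of the 38 members ran from 0.123 to 55.0 FPKM in the knockdown table (median 6.41). In the overexpression table they ran from 0.218 to 80.2 FPKM (median 7.36). In the knockdown table ISG15, a small ubiquitin-like protein, had the highest mean over 9 libraries at 55.0 FPKM. BST2, a membrane tether that holds budding virus, followed at 26.1 FPKM, IFIT5, an RNA-binding protein, at 22.8 FPKM, IFI35 at 20.0 FPKM, the transcription factor IRF1 at 16.4 FPKM and the antiviral GTPase MX1 at 13.7 FPKM. The same 6 genes had the highest means in the overexpression table, from 80.2 FPKM for ISG15 to 15.4 FPKM for MX1. At the other end, OASL, CMPK2 and USP18 averaged below 1 FPKM in both tables. OASL, a relative of the oligoadenylate synthetases, averaged 0.309 and 0.503 FPKM, CMPK2, a mitochondrial nucleotide kinase, 0.218 FPKM in both, and USP18, which removes ISG15 from proteins and dampens receptor signalling, 0.302 and 0.270 FPKM. Testing required a gene to reach 1 FPKM in 3 or more of a table's libraries, which 33 members met in the knockdown table and 34 in the overexpression table. IFIT2, OASL, USP18, CMPK2 and XAF1 fell short in the first, and OASL, CMPK2, UBA7 and USP18 in the second. IFIT2 passed in the second only through OV143, so its presence among the tested members there already reflects a difference.

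Several members sit side by side in the Sscrofa11.1 RefSeq annotation. IFIT2, IFIT3, IFIT1 and IFIT5 lie in this order between positions 101193421 and 101266105 of chromosome 14, and the first 3 fall within the span of LIPA, a lysosomal lipase. OAS2 and OAS1 are neighbours on the same chromosome, MX2 and MX1 on chromosome 13, RSAD2 and CMPK2 on chromosome 3, IFI44 and IFI44L on chromosome 6, and HERC5 and HERC6 on chromosome 8. ISG15 spans positions 63363201 to 63364211 of chromosome 6. The spans of DTX3L and PARP9 overlap each other. Strand use in counting is not given in the sources used here, so reads of overlapping genes cannot be told apart.

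The comparison of OV143 with Lv20NC asks which genes differ when miR-143 is overexpressed, and levels of several antiviral effectors were higher there. Levels of ISG15, IFIT3, IFIT1, MX1 and IFI6 were higher in all 3 OV143 libraries than in any control library. These 5 were called higher only by the fit with a block for the replicate number. The fit without the block called 0 of 34 members tested. IRF1, a transcription factor that acts early in the response, was the only 1 of 38 members whose OV143 libraries all lay below the controls. Of all genes above 0, 9.90% did so, and IRF1 was called in neither of these 2 fits. The transcription factors IRF9, IRF7 and STAT2 and the ubiquitin and ADP-ribosylation genes did not pass in either fit.

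ISG15 measured 31.1, 39.0 and 33.9 FPKM in Lv20NC replicates 1 to 3 and 94.8, 189 and 93.2 FPKM in OV143 replicates 1 to 3. The lowest OV143 library was more than double the highest control, and OV143 replicate 2 stood far above the other OV143 libraries. The means were 34.7 ± 4.01 and 126 ± 54.9 FPKM (SD, n = 3 each), a ratio of 3.62, and the fitted log2 difference of FPKM + 1 was 1.75 (SE 0.27, 95% interval 1.13 to 2.38). The adjusted p from limma was 0.112 without and 0.00209 with the replicate block. The span of ISG15 overlaps that of LOC110261384, which did not exceed 0.42 FPKM in these 6 libraries.

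IFIT3, which binds IFIT1 and stabilises it, measured 7.84, 7.18 and 8.09 FPKM in the controls and 17.9, 21.7 and 16.5 FPKM in OV143. The groups were well separated and replicate 2 was again the highest. The log2 difference was 1.17 (SE 0.12), with an adjusted p from limma of 0.0590 without and 0.00478 with the block, and IFIT3 ranked 4 of 11506 genes by unadjusted p without the block. IFIT1, which binds viral RNA that lacks the host cap, measured 3.04, 3.46 and 3.35 FPKM in the controls and 6.82, 5.06 and 6.64 FPKM in OV143. Here replicate 2 was the lowest of the OV143 libraries and still above every control. Its log2 difference was 0.74 (SE 0.13), with an adjusted p from limma of 0.124 without and 0.0209 with the block. LIPA, whose span holds both genes, averaged 32.6 ± 1.42 FPKM in Lv20NC and 35.6 ± 2.05 FPKM in OV143 (SD, n = 3 each), a smaller difference than that of IFIT3 or IFIT1. IFIT2 measured 0.59, 0.68 and 0.88 FPKM in the controls and 2.03, 1.34 and 1.19 FPKM in OV143, the same order at a low level, with an adjusted p from limma of 0.0759 with the block. IFIT5, the fourth gene of the cluster, measured 23.4, 21.7 and 25.1 FPKM in the controls and 25.5, 13.9 and 26.1 FPKM in OV143. It is the one gene of the 4 whose groups overlapped, and its low value came from OV143 replicate 2.

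**Figure D1:**
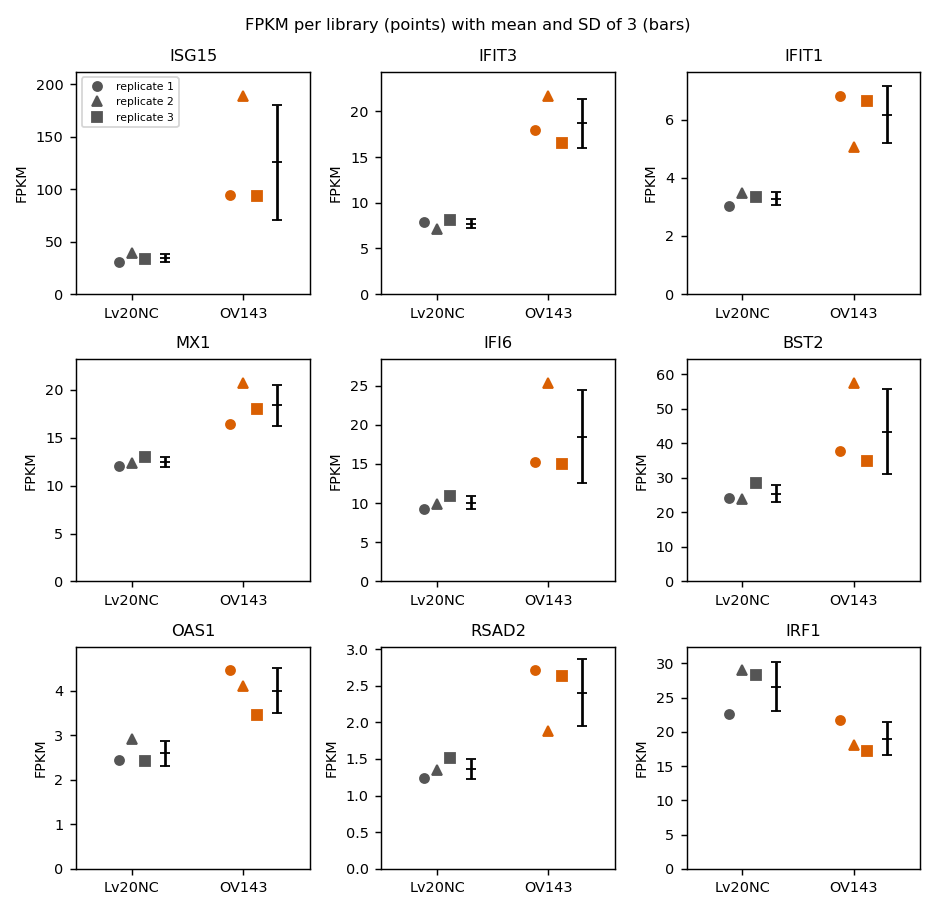
FPKM (y axis, from 0) of 9 members in the 3 Lv20NC and 3 OV143 libraries, each point a library with its replicate number as the symbol, and bars giving the mean and SD of 3. In ISG15 to RSAD2 every OV143 library lies above every control library, while in IRF1 every OV143 library lies below, and replicate 2 is far above the other OV143 libraries for ISG15, IFI6 and BST2.

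The antiviral GTPases and membrane factors showed the most even pattern: all 5 tested had an unadjusted p under 0.05 and separated groups, with a median log2 difference of 0.52. Of all 11506 genes tested, 510 were higher with an unadjusted p under 0.05 in limma and 1031 had separated groups with OV143 higher. MX1, a GTPase that blocks viral ribonucleoproteins, measured 12.1, 12.3 and 13.0 FPKM in the controls and 16.4, 20.7 and 17.9 FPKM in OV143. The controls were close together and the groups separated by more than 3 FPKM. The log2 difference was 0.52 (SE 0.11), with an adjusted p from limma of 0.191 without and 0.0427 with the block. IFI6, a small membrane protein of the endoplasmic reticulum and mitochondria, measured 9.28, 9.88 and 10.9 FPKM in the controls and 15.2, 25.3 and 14.9 FPKM in OV143, again with replicate 2 on top. Its log2 difference was 0.78 (SE 0.20), with an adjusted p from limma of 0.234 without and 0.0342 with the block. BST2 measured 24.1, 23.9 and 28.4 FPKM in the controls and 37.6, 57.4 and 34.9 FPKM in OV143, a log2 difference of 0.71 (SE 0.19) that stayed just short of the threshold with the block (adjusted p from limma 0.0515). RSAD2, the enzyme viperin that makes a chain-terminating nucleotide, measured 1.24, 1.35 and 1.51 FPKM in the controls and 2.71, 1.88 and 2.63 FPKM in OV143, with an adjusted p from limma of 0.0574 with the block. MX2 measured 1.37, 1.20 and 1.94 FPKM in the controls and 2.02, 2.13 and 2.07 FPKM in OV143, separated by a narrow gap, with a log2 difference of 0.31.

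Among the RNA-binding effectors 5 of 10 tested had an unadjusted p under 0.05, all higher in OV143: IFIT1, IFIT2, IFIT3, OAS1 and OAS2. Of all genes tested 4.43% were higher at that threshold. IFIT2 was tested only because its OV143 libraries reached the filter, so its count here already reflects a difference. OAS1 makes the short oligoadenylates that activate RNase L. It measured 2.45, 2.92 and 2.42 FPKM in the controls and 4.46, 4.10 and 3.45 FPKM in OV143, a log2 difference of 0.47 (SE 0.12) with an adjusted p from limma of 0.229 without and 0.0638 with the block. OAS2 averaged 7.09 ± 0.239 and 8.92 ± 1.13 FPKM (SD, n = 3 each), a log2 difference of 0.29. The RNA-activated kinase EIF2AK2 had a log2 difference of 0.20, the editing enzyme ADAR 0.05, the nucleic acid sensor ZBP1 0.12 and the exonuclease ISG20 -0.11, and each of these 4 had overlapping groups.

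Besides ISG15 itself, 2 ligases of the ISG15 conjugation system were tested. HERC5, the main ISG15 ligase in human cells, measured 9.11, 8.62 and 8.80 FPKM in the controls and 12.3, 9.78 and 11.4 FPKM in OV143. The groups separated narrowly, with a log2 difference of 0.30 and an adjusted p from limma of 0.167 with the block. HERC6, its neighbour, had overlapping groups and a log2 difference of 0.10.

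The factors that drive transcription of these genes had small differences or lay the other way. IRF1 measured 22.5, 29.0 and 28.3 FPKM in the controls and 21.8, 18.1 and 17.2 FPKM in OV143, a log2 difference of -0.46 (SE 0.14) with an adjusted p from limma of 0.279 without and 0.105 with the block. It was called lower with the block without replicate 1 (-0.67) and without replicate 2 (-0.37), fits that leave 1 residual degree of freedom. Of all genes tested these fits called 405 of 11335 and 819 of 11350 lower. The separation between its groups was narrow, since Lv20NC replicate 1 lay close to OV143 replicate 1. STAT2 averaged 6.20 ± 0.129 and 6.78 ± 0.384 FPKM and IRF9 12.4 ± 1.21 and 12.8 ± 1.57 FPKM (SD, n = 3 each), log2 differences of 0.11 and 0.04. IRF7, which amplifies interferon production, measured 4.51, 8.76 and 5.18 FPKM in OV143 against 4.61, 4.62 and 4.75 FPKM in the controls, so its log2 difference of 0.29 came largely from replicate 2.

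The ubiquitin ligases and the ADP-ribosylation genes, 5 tested, held none with an unadjusted p under 0.05, where 4.43% of all genes were higher and 6.90% lower by that rule. TRIM25, a ligase that acts on the RNA sensor RIG-I, was the 1 of 5 with separated groups, at 7.88 ± 0.709 and 9.18 ± 0.597 FPKM (SD, n = 3 each). Of all 11506 genes tested, 1031 had separated groups with OV143 higher. DTX3L, PARP9 and PARP14, partners in ADP-ribosylation, had log2 differences of 0.01, 0.08 and -0.01. Of the 7 remaining members, IFI44L, a protein of unclear function, measured 10.2, 10.3 and 11.7 FPKM in the controls and 13.3, 13.7 and 14.2 FPKM in OV143, a log2 difference of 0.33. LGALS3BP, a secreted glycoprotein, measured 6.56, 6.65 and 5.49 FPKM in the controls and 8.35, 12.1 and 7.72 FPKM in OV143, a log2 difference of 0.50. Both had separated groups and an adjusted p from limma above the threshold with the block (0.122 and 0.0652). SP110, NMI, XAF1, IFI35 and IFI44 had overlapping groups.

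**Figure D2:**
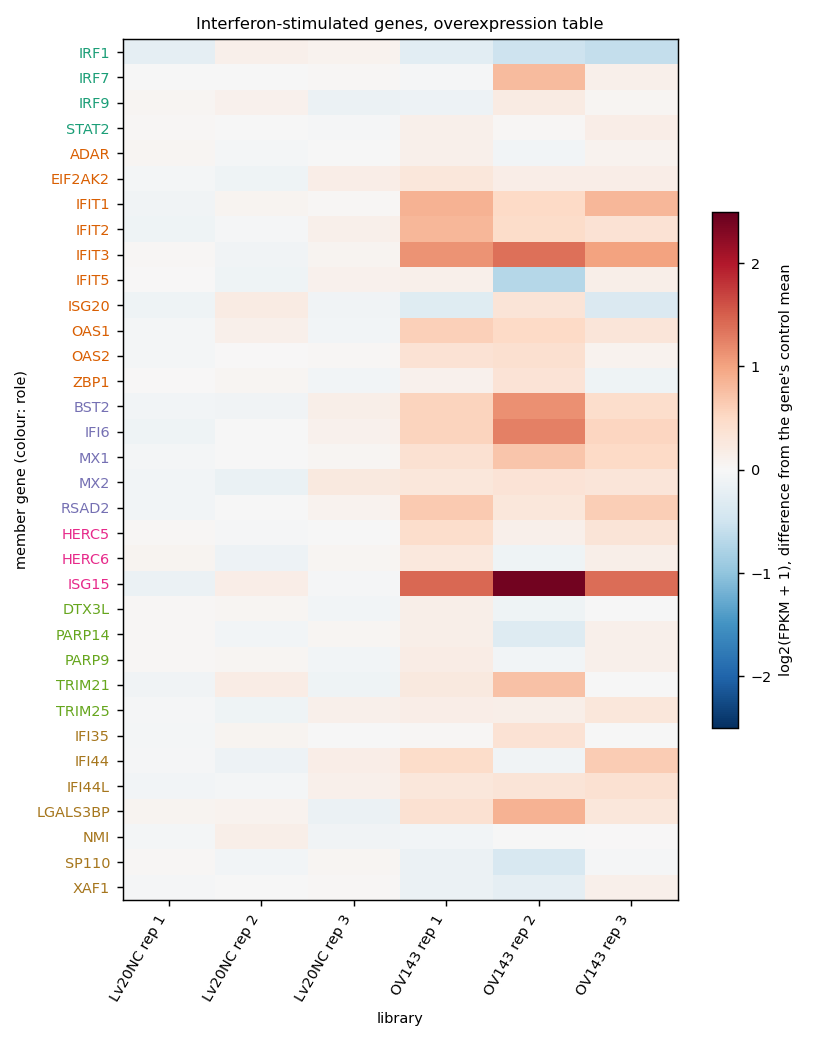
Difference of log2(FPKM + 1) from the gene's Lv20NC mean (colour, red higher and blue lower) for the 34 members tested (rows, coloured by role) in the 6 libraries of the overexpression table (columns). ISG15, IFIT3, IFI6, BST2 and MX1 are red in all 3 OV143 libraries and IRF1 is blue in all 3, while IFIT5, IRF7 and TRIM21 differ from their controls mainly in OV143 replicate 2.

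Counted over the members, 0 of 34 passed an adjusted p of 0.05 in limma without the block, and 0% of all 11506 genes did. 15 members had an unadjusted p under 0.05, 14 of them higher in OV143 and 1 lower, where 4.43% of all genes were higher and 6.90% lower by that rule. With the block 5 of 34 were called, all higher, against 0.643% of all genes called higher and 1.94% in either direction. Of the 38 members listed, 16 had all OV143 libraries above all controls and 1 had them below, against 7.64% and 9.90% of all genes above 0. The median log2 difference was 0.25 over the 34 tested and -0.02 over all genes tested, and 27 of 34 lay above 0, against 45.8% of all genes. The 34 tested include IFIT2, which is among the 14 higher and met the filter only through OV143.

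Which members passed depended on the block and on OV143 replicate 2. Without OV143 replicate 2, limma without the block called 9 members, all higher, where 1.31% of all genes were called higher and 3.16% lower: ISG15, IFIT3, IFIT1, RSAD2, IFI6, BST2, MX1, HERC5 and IFI44. ISG15 then had a log2 difference of 1.42 (adjusted p 9.96e-05) and IFIT3 of 1.07 (0.000238). Leaving out any other library of the comparison left 0 members called. Within OV143, replicate 2 held the highest of the 3 values for 14 of 34 members and the lowest for 14, against 48.9% and 44.0% of all genes tested.

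Of the interferon genes, the type I genes IFNA1, IFNB1, IFNE and IFNK were measured and none met the filter, while IFNW1, the type III interferons and IFNG were not analysed here. IFNB1, encoding interferon beta, was listed at 0 in all 3 Lv20NC libraries and at 0.14, 0.14 and 0 FPKM in OV143. IFNE, an epithelial type I interferon, averaged 0.957 ± 0.0503 FPKM in Lv20NC and 0.587 ± 0.0764 FPKM in OV143 (SD, n = 3 each), under the filter, and was not tested. Of the genes that receive and carry the signal none passed without or with the block. 4 of 5 receptor chains tested had a log2 difference below 0. In 3 of the 5, IFNAR2, IFNGR1 and IL10RB, every OV143 library lay below every control, as in 1488 of 11506 genes tested. IL10RB, shared by the type III interferon receptor, had the smallest p among the 5 (-0.29, unadjusted p 0.0516 in limma). Among 11 sensors and adaptors tested, DHX58, a RIG-I-like receptor that is itself induced by interferon, measured 1.56, 1.80 and 1.83 FPKM in the controls and 2.40, 2.91 and 2.26 FPKM in OV143 (log2 difference 0.37, adjusted p from limma 0.279 without and 0.115 with the block). All 9 entries of MHC class I loading lay above 0 (median 0.14), and 6 of 9 did without OV143 replicate 2 (median 0.06). The smallest p was that of B2M, the light chain of MHC class I, in its entry with gene number 397033 (0.47, adjusted p from limma 0.262 without and 0.0669 with the block). PTPN2 had the smallest p of 3 feedback inhibitors, with a log2 difference of -0.18. Among 14 further inducible genes WARS, the tryptophan tRNA synthetase, had a log2 difference of -0.54 (adjusted p 0.242) and did not pass with the block in limma. GBP1, a guanylate-binding protein, had one of 0.34 but, like IFIT2, was tested only because its OV143 libraries reached the filter. Without OV143 replicate 2, limma without the block called 3 genes of these pathway lists, where 1.31% of all genes were called higher and 3.16% lower. The 3 were 1 of 9 MHC class I entries, 1 of 13 further inducible genes and 1 of 11 sensors and adaptors tested in that fit. B2M with gene number 397033 was called higher (adjusted p 0.0395). WARS (adjusted p 0.0464) and IRF3, a transcription factor activated by the sensors (log2 difference -0.47, adjusted p 0.0350), were called lower. With all libraries IRF3 had a log2 difference of -0.21 and its groups overlapped.

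Markers of other cell types were low in both groups. The summed level of the 6 leukocyte markers listed ran from 5.52 to 6.22 FPKM in Lv20NC and from 5.92 to 8.93 FPKM in OV143. These ranges overlap, with means of 5.98 and 7.38 FPKM. The summed level of the 38 members ran from 305 to 326 FPKM in Lv20NC and from 421 to 558 FPKM in OV143. ISG15 alone averaged 34.7 and 126 FPKM of these sums. Of the fibroblast markers, DCN was listed at 0 in all 3 Lv20NC libraries, while COL1A1 averaged 1.89 FPKM there and 2.23 FPKM in OV143. The part of these markers in the result was not tested. The fibroblast markers summed to 2.16 to 2.70 and 2.52 to 2.72 FPKM and the endothelial markers to 6.81 to 7.07 and 5.29 to 6.83 FPKM. In bulk samples a change in the number of expressing cells and a change in RNA per cell cannot be told apart.

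**Figure D3:**
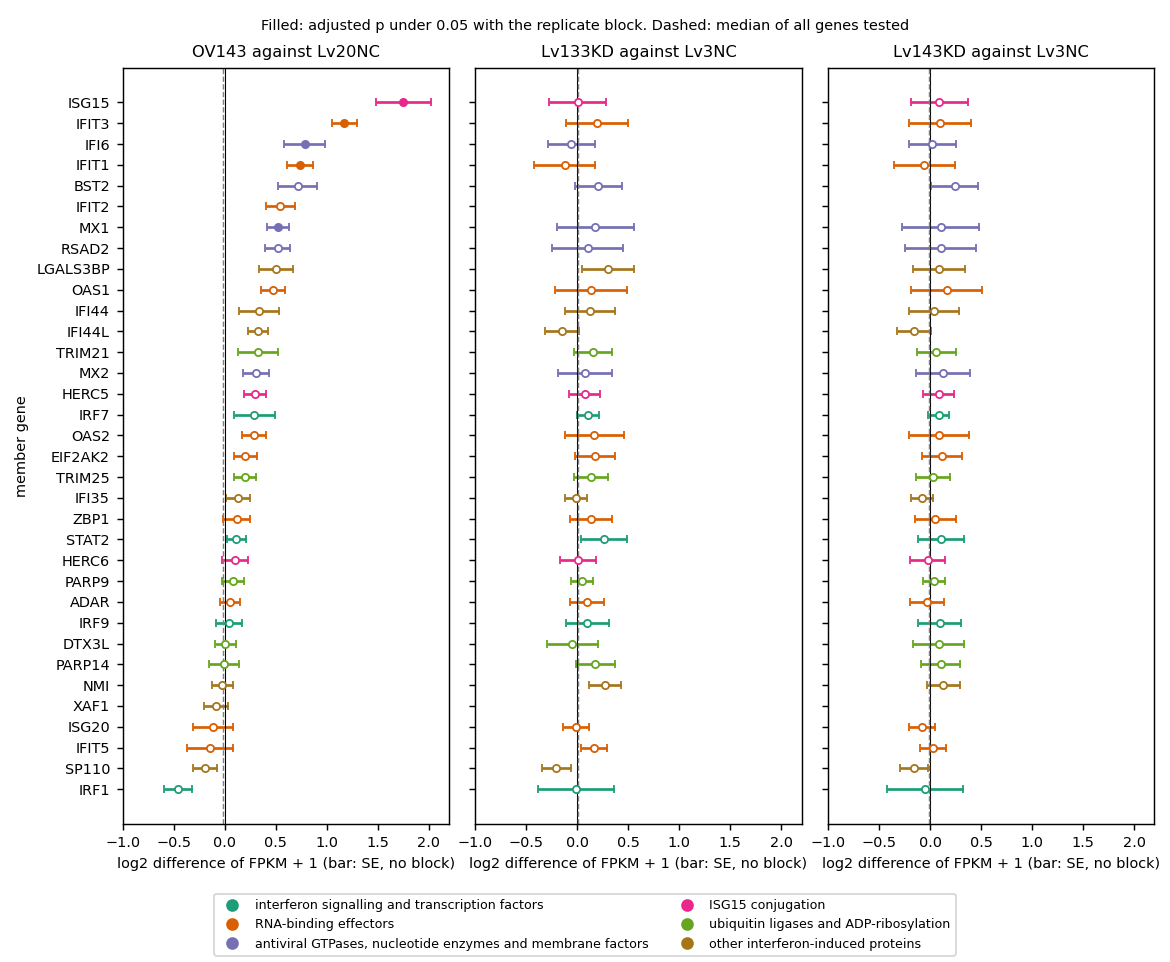
Fitted log2 difference of FPKM + 1 (x axis) with its SE from limma without the block, in 3 comparisons with a control vector. Rows are the 34 members tested in the overexpression table, ordered by the OV143 difference and coloured by role. Filled points have an adjusted p under 0.05 with the replicate block and the dashed line is the median of all genes tested. 5 members are filled for OV143 and 0 for either knockdown vector. Rows without a point in a panel are members that did not pass the filter in that table. UBA7, tested in the knockdown table only, is not shown.

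In the knockdown table the members did not separate by vector. No member was called in Lv133KD against Lv3NC, in Lv143KD against Lv3NC or in Lv133KD against Lv143KD by limma, without or with the block. Without the block 0 of 33 had an unadjusted p under 0.05 in any of the 3, where for Lv133KD 2.40% of all genes were higher and 0.867% lower by that rule, for Lv143KD 1.37% and 0.421%, and for the direct comparison 0.0945% and 0.0343%. Calls at an adjusted p of 0.05 without the block came to 0.0172% of all genes for each knockdown vector against Lv3NC and to 0% between them. With the block they came to 0.258% for Lv133KD, 0.172% for Lv143KD and 0% between them. Unadjusted p-values under 0.05 with the block were found for 1 member higher and 1 lower in Lv133KD, NMI and SP110, against 9.05% and 7.45% of all genes. They were found for 0 members in Lv143KD, against 3.07% higher and 2.67% lower, and for 0 between the 2 vectors, against 1.3% and 0.498%. In none of the 38 members did the 3 libraries of one group all lie above or all below those of another, against 3.85% and 3.18% of all genes for Lv133KD, 1.92% and 2.07% for Lv143KD, and 1.97% and 0.840% for the direct comparison. Both vectors are set against the same 3 control libraries, so their differences are not independent.

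ISG15 averaged 52.6 ± 6.69 FPKM in Lv3NC, 54.0 ± 15.4 FPKM in Lv133KD and 58.4 ± 22.7 FPKM in Lv143KD (SD, n = 3 each). Its log2 difference from Lv3NC was 0.00 for Lv133KD (95% interval without the block -0.63 to 0.63, with it -0.29 to 0.29) and 0.09 for Lv143KD (-0.54 to 0.72 without and -0.20 to 0.38 with the block). For MX1 it was 0.18 (-0.67 to 1.03 without and -0.13 to 0.48 with the block) and 0.11 (-0.74 to 0.95 without and -0.20 to 0.41 with the block). The median member difference was 0.10 for Lv133KD, 0.08 for Lv143KD and 0.04 for Lv133KD against Lv143KD, where all genes had medians of 0.01, -0.01 and 0.02. 24, 25 and 22 of 33 members lay above 0, against 52.3%, 44.2% and 58.2% of all genes tested.

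The members nearest to a difference for Lv133KD were NMI, which binds STAT proteins, and SP110, a nuclear body protein. NMI measured 6.96, 8.48 and 5.80 FPKM in Lv3NC replicates 1 to 3 and 8.52, 9.49 and 8.04 FPKM in Lv133KD. Each Lv133KD library exceeded the control of the same number although the groups overlapped, and the log2 difference was 0.27 (SE 0.16, adjusted p from limma 0.926 without and 0.243 with the block). SP110 measured 12.6, 10.6 and 10.4 FPKM in Lv3NC and 10.8, 8.66 and 9.31 FPKM in Lv133KD, lower in each of the 3 numbers, with a log2 difference of -0.21 (SE 0.14, adjusted p from limma 0.926 without and 0.273 with the block). Leaving out 1 library gave 0.15 to 0.39 for NMI and -0.29 to -0.13 for SP110. IFIT5 (0.17), LGALS3BP (0.30) and STAT2 (0.26) followed by unadjusted p, and leaving out 1 library put them between 0.07 and 0.24, between 0.09 and 0.41, and between 0.07 and 0.43. For Lv143KD the smallest unadjusted p belonged to SP110 (-0.16), BST2 (0.24), IFI44L (-0.16), NMI (0.13) and IRF7 (0.08), each with an adjusted p from limma of 1.00 without the block. Leaving out 1 library put these 5 between -0.28 and -0.07, 0.07 and 0.43, -0.31 and -0.03, 0.01 and 0.27, and 0.03 and 0.15, so each moved by more than 1.5 times. Between the 2 knockdown vectors they belonged to IFIT5 (0.13), NMI (0.14), LGALS3BP (0.21), ADAR (0.12) and UBA7 (-0.09). UBA7, the enzyme that activates ISG15, averaged 1.09 ± 0.176 FPKM in Lv133KD and 1.23 ± 0.305 FPKM in Lv143KD (SD, n = 3 each).

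Of the wider pathway IFNAR1, a chain of the type I interferon receptor, separated both knockdown vectors from the shared control. Of all genes above 0, 3.85% lay wholly higher in Lv133KD than in Lv3NC, and 1.92% in Lv143KD. IFNAR1 measured 11.8, 13.1 and 9.92 FPKM in Lv3NC, 16.3, 16.6 and 14.3 FPKM in Lv133KD and 16.4, 16.6 and 13.7 FPKM in Lv143KD. The log2 differences were 0.41 for Lv133KD (SE 0.13, adjusted p from limma 0.926 without and 0.0790 with the block) and 0.40 for Lv143KD (SE 0.13, adjusted p from limma 1.00 without and 0.134 with the block). MAVS, the mitochondrial adaptor of the RNA sensors, averaged 15.8, 22.9 and 20.0 FPKM in Lv3NC, Lv133KD and Lv143KD, with a log2 difference of 0.55 for Lv133KD (0.38 to 0.76 leaving out 1 library) and an adjusted p from limma of 0.171 with the block. No gene of any pathway list, IFNAR1 and MAVS included, was called in the 3 comparisons, without or with the block. B2M, gene number 397033, had the smallest p of the MHC class I list for Lv133KD (-0.25, and -0.32 to -0.14 leaving out 1 library) and WARS of the further inducible genes (-0.50, and -0.96 to -0.20). For Lv143KD B2M with gene number 110255236 led the MHC class I list (-0.62, and -0.82 to -0.29 leaving out 1 library) and TMEM173, the DNA sensing adaptor STING, the sensors (-0.21, and -0.28 to -0.14).

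What did order the members in the knockdown table was the replicate number. Replicate 1 held the highest value in all 3 groups for 17 of 33 members (51.5%), against 8.09% of all genes tested. ISG15 measured 60.1, 50.5 and 47.2 FPKM in Lv3NC replicates 1 to 3, 67.4, 57.2 and 37.2 FPKM in Lv133KD, and 83.8, 51.2 and 40.2 FPKM in Lv143KD. MX1 measured 18.5, 12.1 and 7.82 FPKM, 17.7, 13.0 and 11.4 FPKM, and 23.0, 11.9 and 8.0 FPKM in the same order. OAS1 measured 16.3, 8.80 and 9.47 FPKM, 17.6, 9.60 and 10.9 FPKM, and 21.6, 9.80 and 9.22 FPKM. In each of the 3 genes replicate 1 was the highest library of every group, and Lv143KD replicate 1 the highest of all 9.

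**Figure D4:**
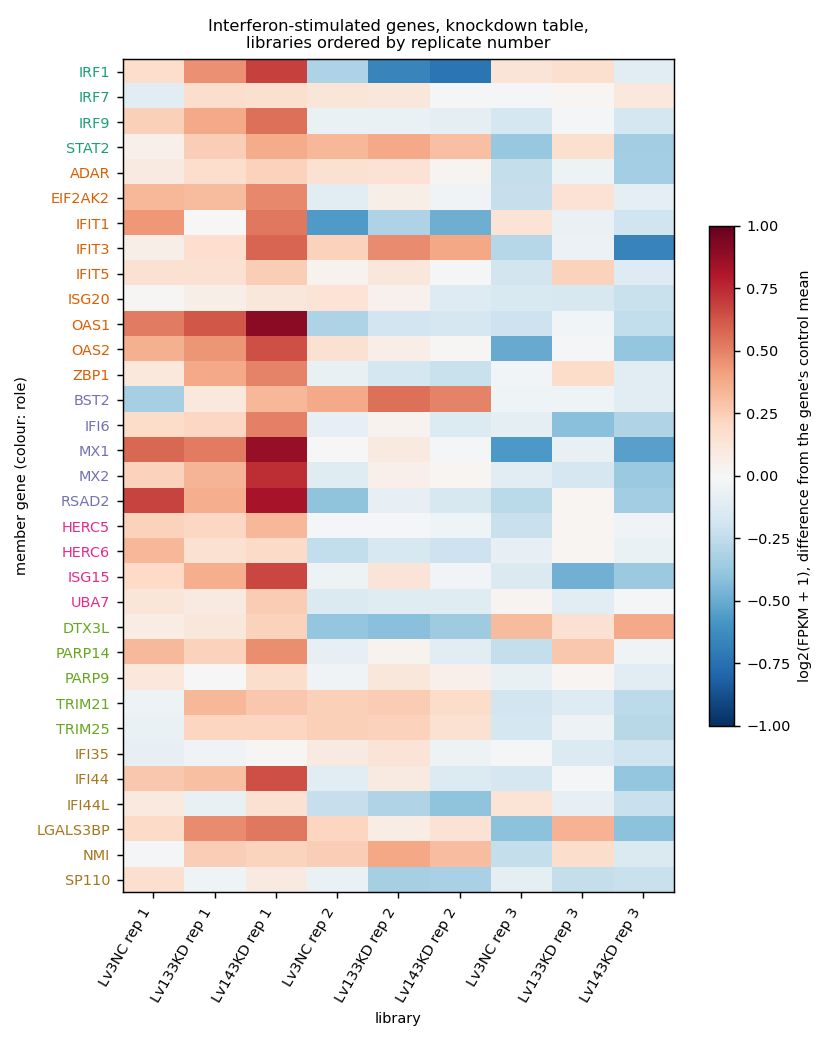
Difference of log2(FPKM + 1) from the gene's Lv3NC mean (colour) for the 33 members tested (rows, coloured by role) in the 9 libraries of the knockdown table (columns, ordered by replicate number). The 3 replicate 1 libraries at the left are mostly red, strongest in Lv143KD replicate 1, where 22 of 33 members have their highest value, while BST2, NMI and DTX3L peak in other numbers.

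As a share of the sum of squares of log2(FPKM + 1) over the 9 libraries, the replicate number held a median of 76.7% for the members and the vector 5.32%, against 58.0% and 13.1% for all genes tested. The number held more than the vector for 32 of 33 members, and for 84.0% of all genes. IRF7 was the exception, with 3.75% for the number and 24.4% for the vector. The members did not share a single order: DTX3L was lowest in replicate 2 of every group (1.77, 1.72 and 1.84 FPKM) and BST2 highest there (30.1, 34.0 and 32.8 FPKM). Lv143KD replicate 1 held the highest value of the 9 libraries for 22 of 33 members, where 8.24% of all genes had theirs there. The median member deviation from the gene's mean was 0.28 in that library, 0.16 in replicate 1 of Lv3NC and of Lv133KD, and between -0.24 and -0.02 in the other 6. Without Lv143KD replicate 1 the median member difference of Lv143KD from Lv3NC was -0.13 in place of 0.08. The labels do not say what a replicate number marks.

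Levels under the 2 control vectors come from tables normalised separately and carry no test, and neither is a level of untransduced cells. Of 32 members at 1 FPKM or more in both controls, 7 (21.9%) had all Lv20NC libraries above all Lv3NC libraries and 4 (12.5%) the reverse, near the 24.3% and 14.4% of all genes. 1 member (3.13%) differed by more than 1 on the log2 scale, against 3.16% of all genes. That gene was OAS1, at 11.5 ± 4.17 FPKM in Lv3NC and 2.60 ± 0.280 FPKM in Lv20NC (SD, n = 3 each). ISG15, at 52.6 and 34.7 FPKM, ZBP1 and IRF7 were also higher in Lv3NC. IRF9, at 5.96 ± 1.07 and 12.4 ± 1.21 FPKM (SD, n = 3 each), IRF1, IFI6, IFIT3, IFI44L, HERC5 and IFI35 were higher in Lv20NC. XAF1, a regulator of apoptosis below the filter in the knockdown table, measured 2.15, 2.17 and 2.29 FPKM in Lv20NC, while it was listed at 0.81, 0 and 0 FPKM in Lv3NC. The tables also divided B2M differently between its gene numbers 110255236 and 397033, which averaged 19.2 and 1318 FPKM in the knockdown table and 576 and 646 FPKM in the overexpression table. Whether the tables differ in the same way for OAS1 or XAF1 was not tested.

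**Figure D5:**
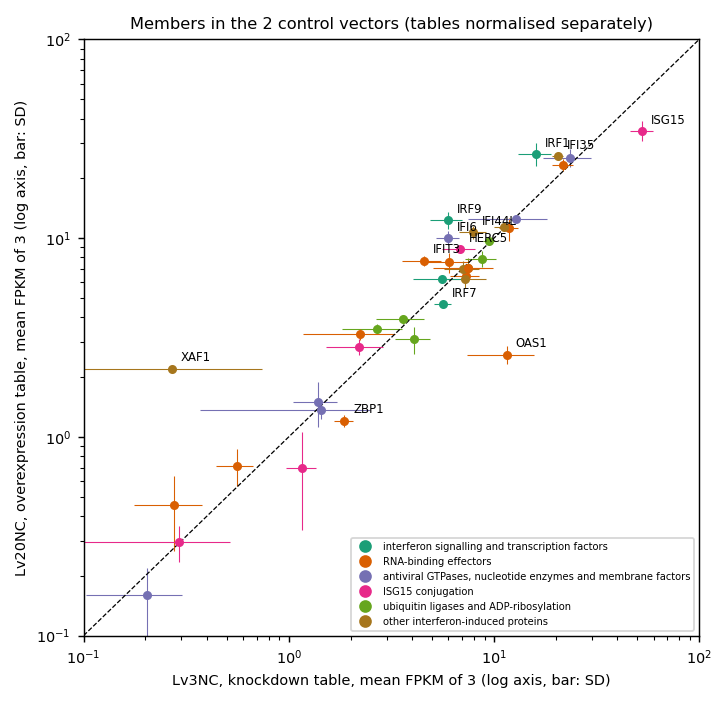
Mean FPKM of each member in the 3 Lv20NC libraries (y axis, log scale) against the 3 Lv3NC libraries (x axis, log scale), with bars of 1 SD, ended at the axis where they reach below it, and colours by role; the dashed line marks equal values, and names are given where the groups do not overlap. OAS1 lies farthest below the line and XAF1 farthest above it.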

How the data were processed

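Total RNA of 15 IPEC-J2 libraries was sequenced, per the labels. FPKM values for each gene were deposited by the authors, per the file headers. The 9 knockdown libraries share a table, and so do the 6 overexpression libraries. Per the submitters' processing notes the genome build is Sscrofa11.1. As to strand use, annotation release, alignment and counting, the tools and settings were not given in the sources used here. FPKM does not keep read totals, and the spacing of low values did not give relative depth, so precision rests on the SD over 3 libraries and on the SE of the fit.

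The members and lists were chosen with earlier results of these data known. Gene numbers were matched to symbols and 1-based coordinates in a RefSeq table of Sscrofa11.1. Each value was taken to log2(FPKM + 1), a scale that understates changes of low genes. Genes that reached 1 FPKM in 3 or more of a table's libraries were fitted with limma 3.58.1 in R 4.3.3 (trended empirical Bayes, two-sided), one fit per table, with Benjamini-Hochberg adjustment over all its genes and a call at an adjusted p under 0.05. Tests were made only within a table, since the tables were normalised separately. The comparisons set OV143 against Lv20NC, each knockdown vector against Lv3NC, and the 2 knockdown vectors against each other. The fit was tested on simulated data. No pair of libraries held identical values.

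Groups share replicate numbers 1 to 3. Deviations from group means correlated at 0.27 to 0.85 in the 9 same-number pairs of knockdown libraries and at 0.23 to 0.72 in the 3 of overexpression libraries. Pairs with different numbers ran from -0.87 to 0.38 (18 pairs) and from -0.68 to 0.54 (6 pairs), so some exceeded same-number pairs. The same-number pairs meet the rule for pairing (every pair over 0.1), so results of a fit with a replicate block stand beside those they change. Only this check supports the pairing, as no label explains the numbers. In the overexpression table the block leaves 2 residual degrees of freedom per gene.

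Differences are given for members called without or with the block, for the 5 members with the smallest unadjusted p in each comparison, and for the pathway gene with the smallest p in each list, of which some results are not reported here. The other members' values describe their roles, and were added after the values were seen. Alternatives were other pseudocounts, filters, scalings, no variance trend, the 2 compared groups alone, the block, and leaving out libraries. No promoter, microRNA or protein sequence was used here.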

Additional observations from a re-analysis of the deposited data

How the results depend on the processing

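The counts of members called in the 3 knockdown comparisons were 0 under every alternative run, and none of their medians moved beyond the spread between replicates. In the knockdown table that spread includes the differences between replicate numbers. Leaving out 1 library put the median between 0.00 and 0.17 for Lv133KD, between -0.13 and 0.18 for Lv143KD, and between -0.07 and 0.22 for Lv133KD against Lv143KD. The medians of Lv143KD and of the direct comparison thus changed sign.

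For OV143 against Lv20NC the count of members called was 0 and became 1 (IFIT3) with quantile normalization, 5 with the replicate block, and 8, 13 and 5 with the block and without replicate 1, 2 or 3. Calls over all genes changed as well, to 6 of 11506, 223 of 11506, 683 of 11335, 1454 of 11350 and 278 of 11345 in the same order. IRF1 was called lower in the fits without replicate 1 and without replicate 2, the other 7 and 12 members higher, and MX1 was not among the 5 called without replicate 3. Those last fits leave 1 residual degree of freedom per gene, so their p-values rest on variance borrowed across genes. Leaving out 1 library gave 0 to 9 calls. The median member difference, 0.25, was 0.20 with a filter of 5 FPKM, 0.17 with no filter, 0.30 with median scaling, 0.29 with quantile normalization, and 0.20 and 0.18 with the block and without replicate 1 or 2. Leaving out 1 library gave 0.19 to 0.28. By the rule used for the knockdown medians, the OV143 median moved beyond the spread between replicates in 10 of 17 alternatives, which ran from 0.17 to 0.30.

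For single named genes, reversed directions were found among small differences of the knockdown table only: IRF7 for Lv143KD with the block without replicate 1 (-0.0070), and, between the knockdown vectors, ADAR without Lv143KD replicate 3 (-0.0378, up to 0.246 leaving out 1 library), LGALS3BP without Lv143KD replicate 3 (-0.0370, up to 0.432) and with the block without replicate 3 (-0.0618), and UBA7 without Lv143KD replicate 1 (0.0163, down to -0.172). The cause was not tested. 3 libraries per group, unknown depth and low FPKM limit what could be seen, most for IFIT2, OASL, CMPK2, USP18 and XAF1.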
